A study of Mus musculus with 9 samples.

Results

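The prostaglandin genes described here are 8 of the 55401 genes in the deposited table, taken by symbol: Ptgs1, Ptgs2, Ptges, Ptges2, Ptgds, Hpgd, Ptger2 and Ptger4. They encode the cyclooxygenases, 3 terminal synthases, the degrading dehydrogenase and a pair of prostaglandin E2 receptors. They were measured by poly(A) RNA sequencing of colonic tissue from wild-type mice in 9 libraries, 3 per group. The chow group and the high-fat diet group both carry AOM/DSS in their titles, short for a carcinogen (azoxymethane) given with an agent that inflames the colon (dextran sulfate sodium), a mouse tumour model. The third group is labelled berberine, a plant alkaloid, and its labels give neither its diet nor whether it received AOM/DSS. Age, sex, dose and time are not in the labels, nor is it stated that the 9 libraries came from 9 animals, so p-values measure the spread between libraries, which may be technical.

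Prostaglandins are lipid signals made from arachidonic acid, which phospholipases release from membranes. A cyclooxygenase, either the largely constitutive PTGS1 or the inducible PTGS2, turns it into prostaglandin H2, and terminal synthases turn that into prostaglandin E2 or D2. Cells take prostaglandin E2 up again and the dehydrogenase HPGD oxidises it to an inactive form. In the colon, PTGS2 is known as a target of aspirin-like drugs and as a gene raised in many tumours, whereas HPGD is known as an enzyme of the mature surface epithelium that is often low in tumours.

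Levels are given on a pair of scales. FPKM, deposited by the authors, is scaled by gene length and is used to compare one gene with another. CPM, computed here from the deposited estimated counts on TMM-scaled library sizes, is used to compare one gene between libraries. Library totals ran from 51961764 to 69007117 estimated counts, and low values that pile up at multiples of 4 put 1 fragment near 4 counts, or 0.0554 to 0.0775 CPM. A gene was tested by edgeR if its mean was at least 1 FPKM over the 9 libraries, which 14506 genes met, and is said to have risen, fallen or changed when its Benjamini-Hochberg adjusted p over all tested genes was under 0.05. Of the 8 genes 6 were tested. Ptgds and Ptger2, with means of 0.492 and 0.590 FPKM, were not. Some libraries stood apart for genes of neighbouring tissue. Summed CPM of 10 striated muscle genes was 1634 in chow replicate 3 and at most 55.4 in the others. Summed CPM of 10 squamous epithelial genes was 282 in chow replicate 1 against 8.30 and 12.3 in the other chow libraries. It was 152.7, 160.9 and 68.9 in high-fat diet replicates 1 to 3 and 10.3 to 24.4 with berberine, so it also moved with the groups, and its part in the results below was not tested. Summed CPM of 8 adipocyte genes was 892 and 732 in berberine replicates 1 and 2 and at most 172 elsewhere. The libraries held epithelium throughout, with 12 general epithelial genes summing to between 9648 and 14109 CPM.

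The results turn mostly on Ptgs2 and Hpgd, the inducible synthetic step and the breakdown step, so the 250 bases before their RefSeq starts (GRCm38.p6, plus strand for both) are shown. Ptgs2 lies on chromosome 1 from 150100031 to 150108227 (ENSMUSG00000032487, GRCm38) and its window is chr1:150099781-150100030. Hpgd lies on chromosome 8 from 56294585 to 56321043 (ENSMUSG00000031613) and its window is chr8:56294302-56294551. Capitals mark the GC box GGGCGG on either strand.
Ptgs2: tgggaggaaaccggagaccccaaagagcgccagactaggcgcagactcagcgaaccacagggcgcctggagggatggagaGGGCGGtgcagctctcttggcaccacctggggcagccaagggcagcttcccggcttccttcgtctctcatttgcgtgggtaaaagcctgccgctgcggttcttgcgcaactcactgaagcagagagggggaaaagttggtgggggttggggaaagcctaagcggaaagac
Hpgd: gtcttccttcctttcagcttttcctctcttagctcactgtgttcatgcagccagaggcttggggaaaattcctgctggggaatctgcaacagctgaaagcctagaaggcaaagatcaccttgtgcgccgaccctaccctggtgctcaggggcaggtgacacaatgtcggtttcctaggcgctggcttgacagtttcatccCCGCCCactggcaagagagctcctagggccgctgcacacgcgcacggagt
The GC box stands 170 to 165 bases before the Ptgs2 start and, on the minus strand, 50 to 45 bases before the Hpgd start, and 32.7% of 32841 RefSeq windows of this length hold one. Neither window held, on either strand, the TATA box TATAAA (in 12.4% of all windows), the cyclic AMP response half-site TGACG (17.8%), the E box CACGTG (6.02%), the TCF/LEF site CTTTGAT (3.21%) or the NF-kB consensus (7.25%). Bases before and after these windows were not searched, so the absences do not show that either promoter lacks such sites.

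Hpgd was the most abundant of the 8 genes per length in every chow and berberine library, and in high-fat diet replicates 2 and 3. In chow libraries it averaged 99.9 ± 38.3 FPKM (SD, n = 3), followed by Ptgs1 at 9.09 ± 0.945, Ptges2 at 5.45 ± 0.196, Ptger4 at 4.14 ± 1.12, Ptges at 3.88 ± 0.304 and Ptgs2 at 2.34 ± 0.517 FPKM. Ptger2 and Ptgds came last at 0.625 ± 0.200 and 0.0917 ± 0.159 FPKM. Ptger4 and its neighbours Ptges2 and Ptges could not be ranked, because the single Ptger4 values of 3.28 to 5.41 FPKM spanned or met theirs. Under high-fat diet the distance narrowed. Hpgd averaged 14.4 ± 1.5 FPKM and Ptgs2 11.2 ± 9.67 FPKM, a spread that covers the Hpgd mean, so these 2 could not be ranked there. It also covers the means of Ptges at 6.32 ± 2.19, Ptgs1 at 5.99 ± 1.46, Ptges2 at 5.00 ± 0.358 and Ptger4 at 4.004 ± 0.226. Ptgds averaged 1.303 ± 0.554 and Ptger2 0.467 ± 0.121 FPKM there. In berberine libraries Hpgd averaged 66.4 ± 11.8 FPKM, and Ptgs1 (6.15 ± 1.84), Ptges (5.98 ± 0.726), Ptges2 (4.78 ± 0.132), Ptgs2 (3.19 ± 1.14) and Ptger4 (2.95 ± 0.183) lay close together below it. Ptger2 was at 0.679 ± 0.0566 and Ptgds at 0.0811 ± 0.0911 FPKM.

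**Figure D1:**
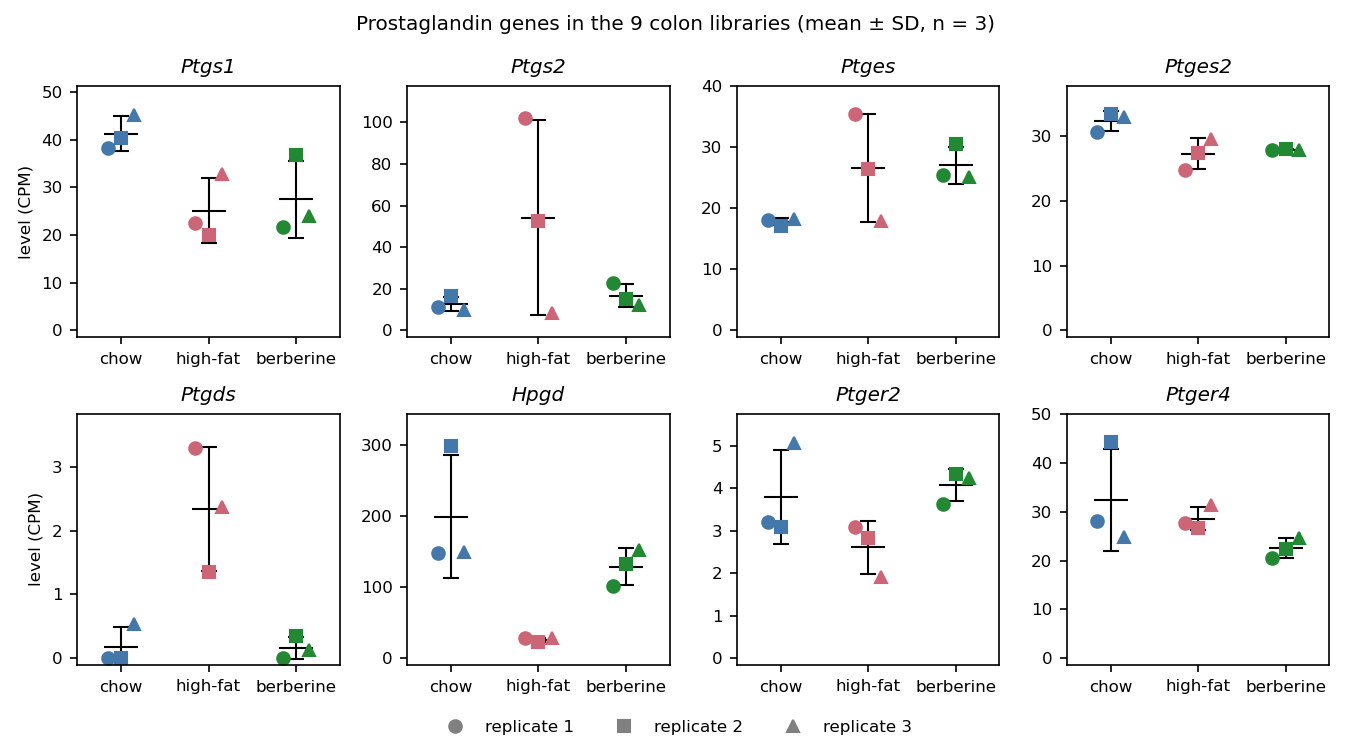
Level of each of the 8 genes in CPM (vertical axis, from 0, a different range in each panel) in chow, high-fat diet and berberine libraries. Points are libraries, with the shape giving the replicate number, and bars are the mean ± SD of 3. Hpgd is at most 27.9 CPM in the high-fat diet libraries and at least 101 CPM in all others, while Ptgs2 in the high-fat diet libraries spreads from 8.36 to 102 CPM.

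The first comparison set the high-fat diet libraries against the chow libraries, both under AOM/DSS. Hpgd fell 7.62-fold, and it was the only one of the 6 tested genes that changed by edgeR. Across all tested genes 31.8% changed, 15.2% upward and 16.6% downward, so 1 of 6 does not set these genes apart. Scaling on library totals alone made 59.8% of all calls upward in place of 47.7%. At an unadjusted p under 0.05 there were 4 of the 6, against 43.2% of all tested genes. The inducible cyclooxygenase gene Ptgs2 was several times higher in 2 of the 3 high-fat diet libraries and not in the other. Ptgs1, Ptges, Ptges2 and Ptger4 differed by less than 2-fold between group means and did not pass the test.

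The breakdown gene Hpgd was at 147.8, 299.1 and 150.1 CPM in chow replicates 1 to 3 and at 27.9, 22.6 and 27.9 CPM in the high-fat diet libraries. The groups did not overlap. Of the 6 tested genes 3 were lower without overlap and none was higher without overlap, where 45.7% of all tested genes did not overlap, 23.2% higher and 22.6% lower. The highest chow value, in replicate 2, was about double the other chow values, and the high-fat diet values lay close together. The log2 fold change was -2.93 ± 0.31 (SE, edgeR adjusted p = 0.000406). Leaving out chow replicate 2 gave -2.51 ± 0.19, the smallest change among the 9 fits that leave out 1 library. Hpgd overlaps Gm45540 on the same strand, a gene with at most 219 estimated counts in a library.

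Hpgd was accompanied by genes of absorptive colonocytes, the mature cells that line the colon surface. The summed CPM of 11 such genes, among them Aqp8, Slc26a3 and Car4, was 7939, 14783 and 6214 in chow replicates 1 to 3 and 817, 1048 and 622 in the high-fat diet libraries, and all 11 fell. Chow replicate 2 was again the highest chow library. None of the 11 markers was at 0 in any whole group. Summed general epithelial genes were nearer to each other, at 12711 to 13862 CPM in chow and 9648 to 12572 CPM under high-fat diet. The part of these cells in the Hpgd result was not tested, and in tissue RNA fewer cells of a type and less RNA per cell cannot be told apart.

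Of the cyclooxygenases, Ptgs2 was at 11.4, 16.4 and 9.99 CPM in chow replicates 1 to 3 and at 102.0, 52.4 and 8.36 CPM in high-fat diet replicates 1 to 3. High-fat diet replicates 1 and 2 lay above every chow library and replicate 3 below every chow library. The mean was 54.3 ± 46.9 against 12.6 ± 3.39 CPM, or 4.30-fold higher, and the log2 fold change of 2.11 ± 0.72 missed the threshold (edgeR adjusted p = 0.0532). Without high-fat diet replicate 3 it was 2.63 ± 0.38 (edgeR adjusted p = 0.00256), and without replicate 1 it was 1.26 (edgeR adjusted p = 0.195). DESeq2 on all 9 libraries called it at adjusted p = 0.00494.

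Summed markers of several cell types were highest in high-fat diet replicate 1 and lowest in replicate 3 of that group, as Ptgs2 was. Mast cell genes, 10 listed, summed to 4983, 1129 and 338 CPM in high-fat diet replicates 1 to 3 and to between 66.5 and 134.6 CPM in chow, where Fcer1a and Tpsab1 were at 0 in all 3 libraries. Tuft cell genes, also 10, summed to 198.9, 129.7 and 86.9 CPM against 51.7 to 73.5 CPM in chow, with none at 0 in a whole group. Macrophage genes, 11 in number and none at 0, summed to 1095, 770 and 675 CPM against 635 to 1012 CPM in chow, so that replicates 2 and 3 lay within the chow range. Fibroblast genes (1587, 1308 and 992 CPM) and endothelial genes (178.1, 128.0 and 115.0 CPM) had the same order, with 1292 to 1791 and 147.7 to 195.6 CPM in chow. Smooth muscle genes ran the other way among the high-fat diet libraries, at 1667, 2558 and 7866 CPM in replicates 1 to 3 against 10022 to 14089 CPM in chow. None of the remaining marker lists had the order of Ptgs2. Among them were neutrophil genes (113.7, 157.4 and 76.8 CPM) and genes of T and B cells (230.0, 130.4 and 144.3 CPM). The part of these cell types in the Ptgs2 values was not tested. The antisense transcript genes Ptgs2os and Ptgs2os2 were at most 0.561 and 1.12 CPM in any library.

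Ptgs1, the constitutive cyclooxygenase gene (ENSMUSG00000047250, chromosome 2, 36230426 to 36252272), was at 38.2, 40.3 and 45.2 CPM in chow and at 22.6, 19.9 and 32.9 CPM under high-fat diet. The groups did not overlap, and the highest high-fat diet value was in replicate 3, the library with the most smooth muscle RNA of the 3. The log2 fold change was -0.72 ± 0.25 (edgeR adjusted p = 0.0554). It passed by DESeq2 (adjusted p = 0.0225), and by edgeR once berberine replicate 2 (-0.72, adjusted p = 0.0353) or high-fat diet replicate 3 (-0.95, adjusted p = 0.0242) was left out. The lower Ptgs1 and higher Ptgs2 meant that Ptgs2 exceeded Ptgs1 per length 3.84-fold and 2.23-fold in high-fat diet replicates 1 and 2. In high-fat diet replicate 3 Ptgs1 exceeded Ptgs2 4.64-fold, within the chow values of 3.95-fold, 2.89-fold and 5.33-fold.

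Among the terminal synthases, Ptges encodes the inducible microsomal prostaglandin E synthase (ENSMUSG00000050737, chromosome 2, 30889471 to 30903297). It was at 18.1, 17.1 and 18.2 CPM in chow and at 35.5, 26.4 and 17.9 CPM under high-fat diet, so that replicate 3 again lay with chow. The log2 fold change of 0.58 ± 0.23 did not pass (edgeR adjusted p = 0.0888), and without high-fat diet replicate 3 it was 0.81 ± 0.18 (edgeR adjusted p = 0.0133). Ptges2, another prostaglandin E synthase gene (ENSMUSG00000026820, chromosome 2, 32395896 to 32405772), had the smallest spread of the 6 tested genes. It ran from 30.5 to 33.4 CPM in chow and from 24.7 to 29.5 CPM under high-fat diet (log2 fold change -0.24 ± 0.12, edgeR adjusted p = 0.14).

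Ptgds encodes a prostaglandin D synthase of the lipocalin family (ENSMUSG00000015090, chromosome 2, 25466709 to 25470046). It had no count in chow replicates 1 and 2, where the limit that a count of 0 allows is 0.196 and 0.226 CPM, and 0.531 CPM in chow replicate 3. Under high-fat diet it was at 3.30, 1.36 and 2.37 CPM, above every chow library, and these limits cover counting error only. Its estimated counts there were 238, 79 and 147. With edgeR's filterByExpr in place of the FPKM filter it was tested and did not pass (log2 fold change 3.74 ± 1.59, adjusted p = 0.123).

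Both receptors for prostaglandin E2 in the list signal through cyclic AMP. Ptger4 (ENSMUSG00000039942, chromosome 15, 5206661 to 5244172) was at 28.1, 44.4 and 24.9 CPM in chow and at 27.8, 26.8 and 31.3 CPM under high-fat diet. The groups overlapped, and the log2 fold change of -0.18 ± 0.21 (edgeR adjusted p = 0.558) became 0.11 ± 0.15 without chow replicate 2. Ptger4 overlaps Ttc33 on the other strand, which had up to 1958 estimated counts in a library, and whether counting used strand is not given in the sources used here. Ptger2 (ENSMUSG00000037759, chromosome 14, 44988195 to 45003820) was low throughout, at 3.22, 3.09 and 5.08 CPM in chow and 3.09, 2.83 and 1.92 CPM under high-fat diet. It overlaps Gm49364 and Gm17173 on the other strand, with up to 134 and 49 estimated counts. With filterByExpr it did not pass (log2 fold change -0.48 ± 0.31, edgeR adjusted p = 0.293).

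The berberine group was then compared with the high-fat diet group. Hpgd was 4.94-fold higher in the berberine libraries and again the only one of 6 tested genes that changed, where 30.7% of all tested genes changed, 15.8% upward and 14.9% downward. Scaling on library totals alone made 40.9% of all calls upward in place of 51.4%. At an unadjusted p under 0.05 there were 2 of the 6, against 42.3% of all tested genes. Ptgs2 was lower in mean and its groups overlapped. Ptgs1, Ptges and Ptges2 had nearly equal means in both groups. This comparison shares the high-fat diet libraries with the one above, so the values of the groups are set side by side without reading one as support for the other.

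Hpgd was at 101, 132.7 and 152.8 CPM in berberine replicates 1 to 3, all above the high-fat diet libraries. Of the 6 tested genes 1 was higher and 1 lower without overlap, where 50.4% of all tested genes did not overlap, 24.8% higher and 25.6% lower. The log2 fold change was 2.30 ± 0.30 (edgeR adjusted p = 0.001). The summed absorptive colonocyte genes were at 4723, 5218 and 7465 CPM in berberine replicates 1 to 3, the same order as Hpgd, and 10 of the 11 rose. Their part in the result was not tested.

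Ptgs2 was at 23.0, 14.9 and 12.2 CPM in the berberine libraries. These values lay below high-fat diet replicates 1 and 2 and above replicate 3. The log2 fold change of -1.70 ± 0.71 did not pass (edgeR adjusted p = 0.101). It was -2.22 ± 0.37 without high-fat diet replicate 3 (edgeR adjusted p = 0.00546), -0.84 without high-fat diet replicate 1 (edgeR adjusted p = 0.378), and DESeq2 on all libraries gave adjusted p = 0.0268. Mast cell genes summed to between 74.7 and 90.6 CPM in the berberine libraries and tuft cell genes to between 48.0 and 65.7 CPM, below every high-fat diet library in each case. Of the 4 tuft cell genes tested 1 fell and none rose with berberine, where 14.9% and 15.8% of all tested genes did. The macrophage sum went the other way, at 1158 to 1306 CPM with berberine, above every high-fat diet library. Of the 11 macrophage genes, all tested, 1 rose and 1 fell against high-fat diet, so the sum and the calls differed. Fibroblast genes (1294 to 1867 CPM) and endothelial genes (172.5 to 221.9 CPM) overlapped the high-fat diet libraries. The part of these lists in the Ptgs2 values was not tested.

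The other members showed no change between these groups by edgeR. Ptgs1 was at 21.8, 36.7 and 23.9 CPM in berberine replicates 1 to 3 (log2 fold change 0.13 ± 0.25, adjusted p = 0.721). Ptges was at 25.5, 30.5 and 25.1 CPM, with a log2 fold change of 0.02 ± 0.23 whose sign turned with the scaling (-0.09 on library totals). Ptges2 was at 27.8, 27.9 and 27.8 CPM, the narrowest range of any gene here in any group, and its log2 fold change of 0.03 ± 0.12 turned to -0.08 on library totals. Ptger4 was at 20.6, 22.5 and 24.6 CPM, below every high-fat diet library (log2 fold change -0.34 ± 0.21, adjusted p = 0.254). Ptgds was at 0, 0.342 and 0.132 CPM, below every high-fat diet library, and Ptger2 at 3.64, 4.35 and 4.25 CPM, above every one. With filterByExpr these had edgeR adjusted p = 0.118 and 0.184.

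**Figure D2:**
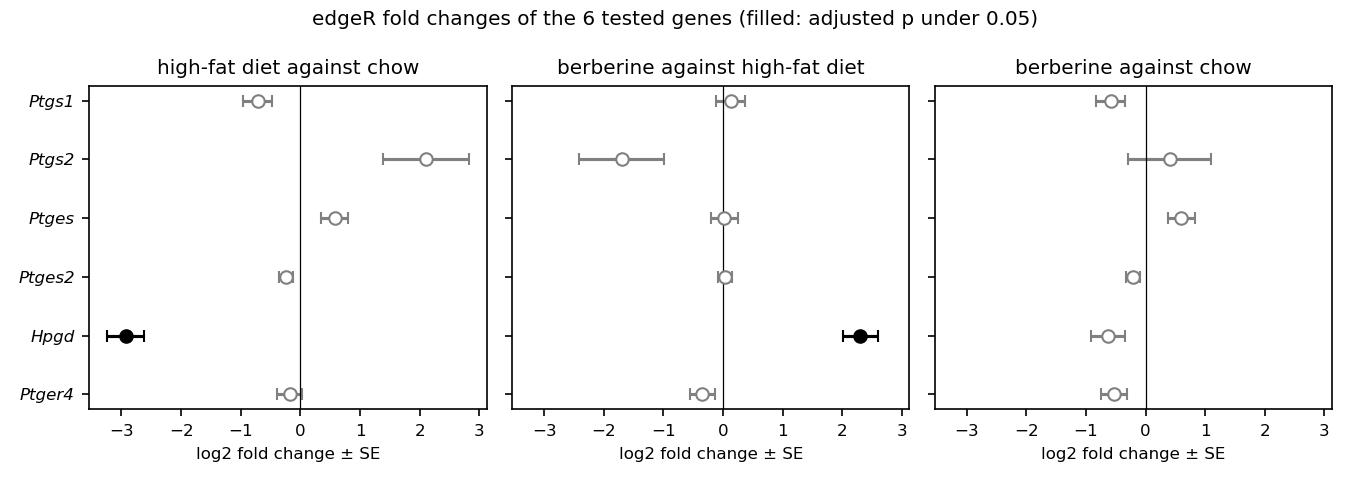
Log2 fold change ± SE by edgeR (horizontal axis) of the 6 tested genes in the 3 comparisons, 3 libraries per group. Filled points have adjusted p under 0.05, which Hpgd had at -2.93 for high-fat diet against chow and at 2.30 for berberine against high-fat diet, and no gene had for berberine against chow.

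Between berberine and chow, none of the 6 tested genes changed by edgeR or by DESeq2, where edgeR called 0.0483% of all tested genes, 0.0414% higher and 0.00689% lower. At an unadjusted p under 0.05 edgeR counted 3 of the 6, against 10.9% of all tested genes. These were Ptgs1 (log2 fold change -0.59 ± 0.25, adjusted p = 0.436), Ptges (0.60 ± 0.23, adjusted p = 0.406) and Ptger4 (-0.53 ± 0.22, adjusted p = 0.423). In each of them and in Ptges2 the groups did not overlap, 1 higher and 3 lower, as in 18.1% of all tested genes, 8.73% higher and 9.37% lower. Ptges averaged 27.0 ± 2.99 CPM with berberine, 26.6 ± 8.79 CPM under high-fat diet and 17.8 ± 0.588 CPM in chow, so the berberine mean lay at the high-fat diet mean for this gene. Ptgs1 averaged 27.5 ± 8.08, 25.1 ± 6.85 and 41.3 ± 3.59 CPM in the same order. Smooth muscle genes summed to between 4959 and 5898 CPM with berberine, 1667 and 7866 CPM under high-fat diet and 10022 and 14089 CPM in chow, and their part in the Ptgs1 values was not tested. Hpgd averaged 129 ± 26.1 CPM against 199 ± 86.7 CPM in chow (log2 fold change -0.63 ± 0.28, adjusted p = 0.462), a difference that was -0.21 without chow replicate 2. Ptgs2 averaged 16.7 ± 5.60 against 12.6 ± 3.39 CPM (log2 fold change 0.40 ± 0.69, adjusted p = 0.864).

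The RNA levels of Ptgs2 and Hpgd, the genes of the inducible synthetic step and the breakdown step, were compared per length in each library, without a test. Enzyme activity and prostaglandins are not among the data described here. Hpgd exceeded Ptgs2 by 35.3, 49.5 and 40.9 times in chow replicates 1 to 3, and by 11.98, 24.2 and 34.0 times in berberine replicates 1 to 3. In high-fat diet replicate 1 Ptgs2 exceeded Hpgd 1.35-fold, in replicate 2 Hpgd exceeded Ptgs2 1.17-fold, and in replicate 3 it did so 9.10-fold. All 3 high-fat diet libraries therefore had a smaller excess of Hpgd than any other library. In replicate 3 this came from Hpgd alone, since its Ptgs2 level of 1.65 FPKM was below that of every other library. The mean log2 ratio of Ptgs2 to Hpgd was -5.37 ± 0.25 in chow, -0.996 ± 1.92 under high-fat diet and -4.42 ± 0.77 with berberine (SD, n = 3).

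**Figure D3:**
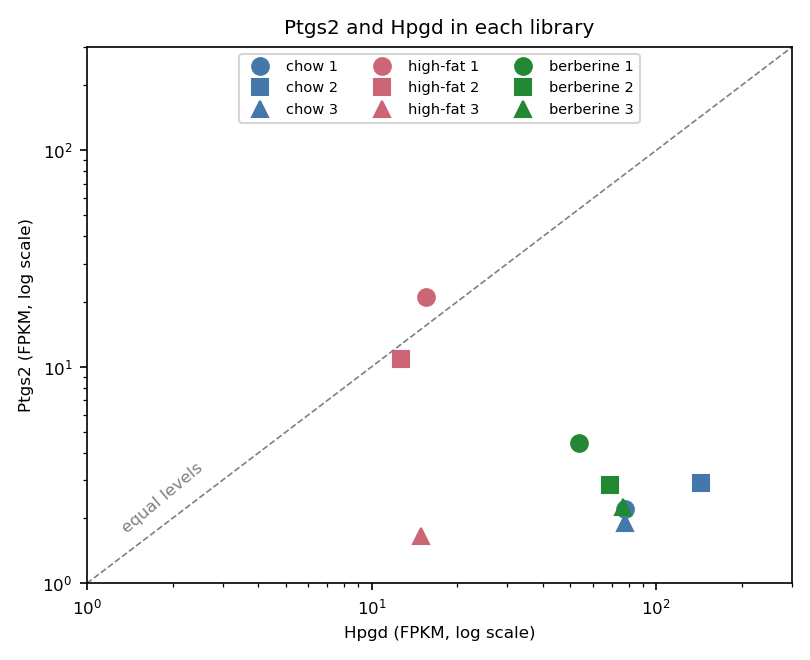
Ptgs2 against Hpgd in FPKM, both axes on a log scale, 1 point per library, with a dashed line at equal levels. High-fat diet replicates 1 and 2 lie at the line, high-fat diet replicate 3 lies below it at 15.0 FPKM of Hpgd and 1.65 FPKM of Ptgs2, and the chow and berberine libraries lie together at 53.5 to 144.2 FPKM of Hpgd.

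Other genes of the pathway were described by lists grouped by role. Genes under the FPKM minimum went untested, so counts describe only the rest of each list. They stand beside 15.2% of all tested genes that rose and 16.6% that fell under high-fat diet against chow, and 15.8% and 14.9% for berberine against high-fat diet. Genes of transport and further breakdown were all measurable, 7 of 7 in the table, with 8 symbols listed. Under high-fat diet 2 of them rose and 3 fell against chow, with a median log2 fold change of 0.23 (0.0015 over all genes tested). Abcc4, an exporter of prostaglandins, was at 36.3, 20.7 and 23.6 CPM in chow and at 109.3, 131.5 and 173.4 CPM under high-fat diet (2.36 ± 0.27, edgeR adjusted p = 0.000564). Ptgr1, a prostaglandin reductase, rose by 1.51 ± 0.20 and Zadh2, another prostaglandin reductase, fell by 0.99 ± 0.17 on the log2 scale. Slco2a1, the transporter that takes prostaglandins up before their oxidation, was named after its values were seen. It was at 104.4, 116.7 and 107.1 CPM in chow and at 35.1, 32.9 and 9.35 CPM under high-fat diet (-2.08 ± 0.41, edgeR adjusted p = 0.00611). Every high-fat diet library was below every chow library for Slco2a1 and above every one for Abcc4.

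In the berberine libraries Abcc4 was at 30.0, 30.3 and 21.7 CPM and Slco2a1 at 127.6, 131.2 and 131.3 CPM. Against high-fat diet, Abcc4 fell by 2.34 ± 0.27, Ptgr1 fell by 1.56 ± 0.20, and Slco2a1 and Zadh2 rose by 2.33 ± 0.41 and 0.75 ± 0.17 on the log2 scale. In all, 2 of the 7 rose and 3 fell, with a median of 0.55. Against chow none of these 7 changed by edgeR, with 2 at an unadjusted p under 0.05, against 10.9% of all tested genes.

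Of 8 genes listed as other prostanoid receptors 4 were tested. Ptger3, which encodes a prostaglandin E2 receptor that lowers cyclic AMP, averaged 10.7 ± 3.08 CPM in chow and 1.23 ± 0.510 CPM under high-fat diet (-3.13 ± 0.44, edgeR adjusted p = 0.00137). Ptger1, a prostaglandin E2 receptor gene of the calcium-signalling type, fell by 1.12 ± 0.18 and Tbxa2r, the thromboxane receptor gene, fell by 1.4 ± 0.31 on the log2 scale. The fourth, Ptgfrn, which is not a receptor but a negative regulator of one, rose by 0.58 ± 0.16. The 4 tested genes had a median of -1.26 for high-fat diet against chow and 1.01 for berberine against high-fat diet. In the berberine libraries Ptger3 was at 8.64 ± 3.09 CPM and rose by 2.82 ± 0.43, Ptger1 rose by 1.03 ± 0.18 and Tbxa2r rose by 0.99 ± 0.31 against high-fat diet, while Ptgfrn fell by 0.54 ± 0.16. The Tbxa2r call had edgeR adjusted p = 0.0416. It was lost without chow replicate 1, either of high-fat diet replicates 1 and 2, or any berberine library, at adjusted p of 0.0558 to 0.116. Against chow none of the 4 berberine values changed by edgeR, and none was under 0.05 unadjusted. Beside these, Ptger4 averaged 28.6 ± 2.39 CPM under high-fat diet and 32.5 ± 10.4 CPM in chow, and whether its change differs from that of Ptger3 was not tested. Ptger3 passed the filter through chow and berberine libraries, with 0.199 FPKM under high-fat diet. Tbxa2r did so too, at 0.871 FPKM under high-fat diet, 2.15 in chow and 1.63 with berberine. The testing of both genes therefore leaned on the groups where they were high.

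Other prostanoid synthases were tested for 7 of 9 genes in the table, with 10 symbols listed. Against chow, high-fat diet went with a rise of Ptges3, a cochaperone gene also credited with prostaglandin E synthase activity, from 72.0 ± 15.4 to 132 ± 7.18 CPM (0.88 ± 0.16). Ptgis, the prostacyclin synthase gene, fell by 1.49 ± 0.30 and Cbr3, a carbonyl reductase gene, fell by 1.73 ± 0.36 on the log2 scale. The other 4 did not pass, and the median was -0.63. Against high-fat diet, Cbr3 and Akr1b3, which encodes an aldose reductase with prostaglandin F synthase activity, rose with berberine by 1.401 ± 0.36 and 0.54 ± 0.17, and Ptges3 fell by 0.59 ± 0.16 (median of the 7, 0.25). The Akr1b3 call was close to the threshold (edgeR adjusted p = 0.0457), and how it depends on single libraries is not reported here. The Cbr3 call was lost without berberine replicate 2 (edgeR adjusted p = 0.0669). For Ptges3, leaving out any berberine library, or high-fat diet replicate 1 or 3, ended the call (edgeR adjusted p of 0.0522 to 0.0811). Against chow none of the 7 changed by edgeR, with 1 under 0.05 unadjusted, against 10.9% of all tested genes.

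For arachidonate release 8 of 10 genes were tested, 2 rose and 2 fell under high-fat diet against chow, with a median of -0.36. The secreted phospholipase gene Pla2g2a rose by 7.35 ± 1.06 and Plaa, a phospholipase-activating protein gene, by 0.77 ± 0.13. Pla2g10, another secreted phospholipase gene, fell by 0.91 ± 0.18, and Pla2g4a, the cytosolic phospholipase gene, fell by 0.61 ± 0.16 on the log2 scale. With berberine, 2 of the 8 rose and 2 fell against high-fat diet, with a median of 0.18. Pla2g10 was 1.01 ± 0.18 higher and Pla2g4a 0.53 ± 0.16 higher, and Pla2g2a fell by 7.83 ± 1.08 and Plaa fell by 0.66 ± 0.13. Against chow none of the 8 changed, and none was under 0.05 unadjusted by edgeR.

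**Figure D4:**
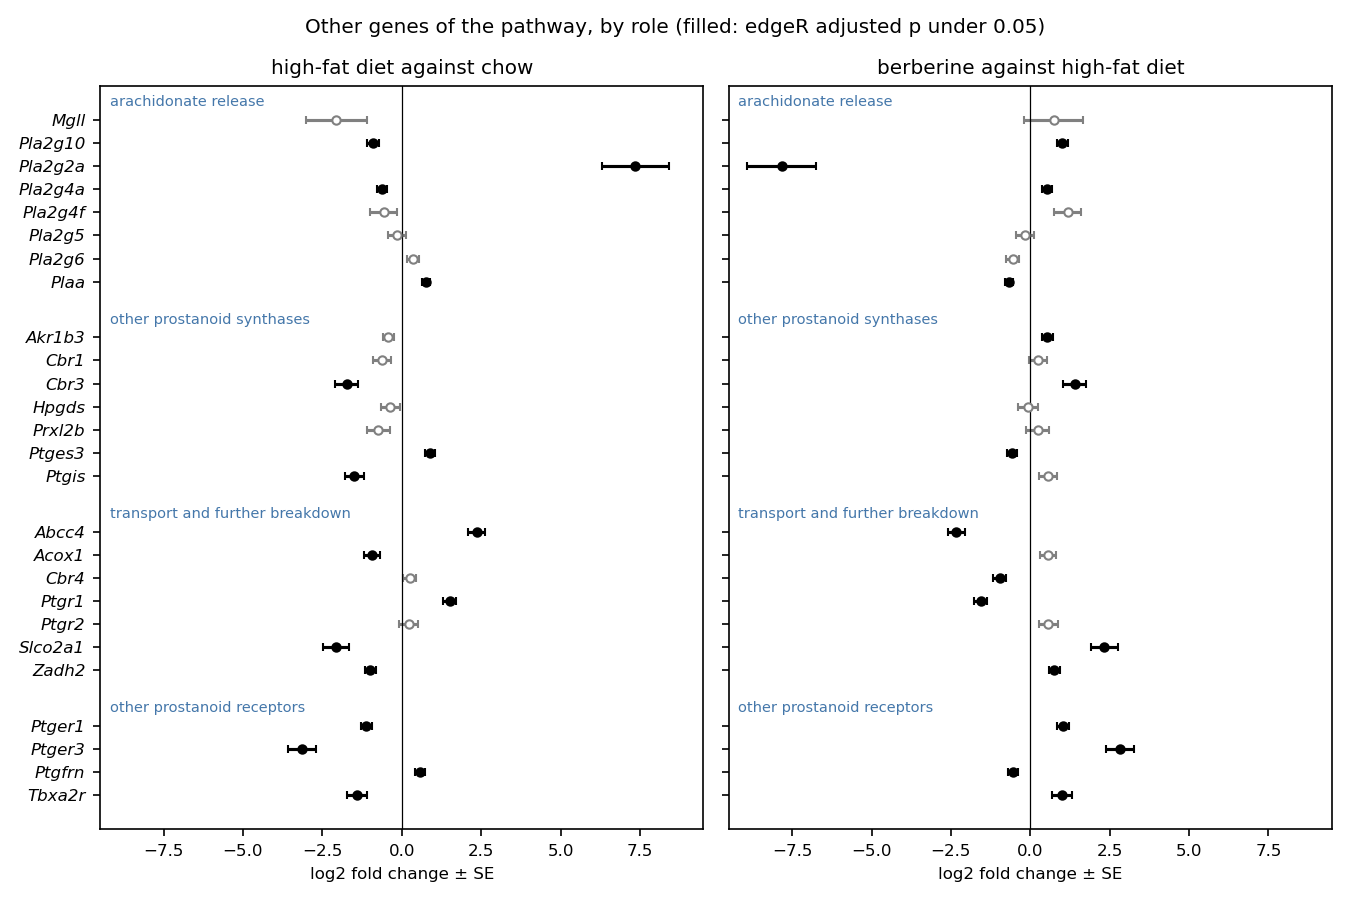
Log2 fold change ± SE by edgeR (horizontal axis) of the tested genes of 4 role lists, for high-fat diet against chow and for berberine against high-fat diet, 3 libraries per group. Filled points have adjusted p under 0.05. Abcc4 (2.36) and Slco2a1 (-2.08) lie on opposite sides for high-fat diet against chow, and the 2 panels share the high-fat diet libraries.

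Genes known to act upstream of Ptgs2 or to be induced with it were tested for 11 of 14 listed, and 3 rose and none fell under high-fat diet (median 0.02). Since 31.8% of all tested genes changed, 3 of 11 does not set this list apart. They were Il1b (2.82 ± 0.61), Tnf (1.93 ± 0.33) and Nr4a2 (2.24 ± 0.39), which encode inflammatory cytokines and an early response nuclear receptor. Nr4a2 averaged 0.860 FPKM in chow, under the filter minimum, 4.49 under high-fat diet and 1.86 with berberine. Il1b was at 39.7, 17.8 and 6.68 CPM in high-fat diet replicates 1 to 3 and at 3.23, 3.24 and 2.64 CPM in chow. High-fat diet replicate 1 was highest and replicate 3 lowest of that group for Il1b, as for Ptgs2, but replicate 3 of Il1b still lay above chow. Against high-fat diet, berberine libraries were lower for Tnf (-1.45 ± 0.32) and Nr4a2 (-1.17 ± 0.38) and higher for Nfkbia, an inhibitor of NF-kB (0.76 ± 0.15), and the other 8 did not pass (median -0.13). The Nr4a2 call had edgeR adjusted p = 0.0458, and was lost without chow replicate 1 or 3, any high-fat diet library, or berberine replicate 2 or 3, at adjusted p of 0.0557 to 0.128. Against chow none of the 11 changed by edgeR, with 3 under 0.05 unadjusted, against 10.9% of all tested genes.

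Genes whose profile over the 9 libraries was closest to a member were found by the root mean square difference of centred log2(CPM + 1) among 12229 other tested genes. For Hpgd they were Tmem171 (0.16), Dgkh (0.21) and Aldh1b1 (0.24), against an SD of Hpgd itself of 1.33. Tmem171 was at 106.0, 157.5 and 105.8 CPM in chow, 19.2, 16.8 and 17.3 CPM under high-fat diet and 59.5, 86.9 and 113.0 CPM with berberine. Like Hpgd it was highest in chow replicate 2, and lowest of the berberine libraries in replicate 1. Such likeness follows from the choice, since the genes named here were picked for closeness over these same libraries. For Ptgs2 the closest were Smoc1 (0.42), Galnt18 (0.44) and Ereg (0.47), against an SD of 1.15, so these matches were looser. Ereg, an EGF receptor ligand gene, was at 75.4, 42.9 and 18.6 CPM in high-fat diet replicates 1 to 3 and between 11.7 and 22.6 CPM in all other libraries. For Ptgs1 they were Ago4 (0.16), Kiz (0.17) and Sp3os (0.18). For Ptger4 they were Slc17a5 (0.072), Prss23 (0.11) and Prpsap1 (0.12), and for Ptges2 Baz2b (0.044), Manea (0.048) and Slk (0.058).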

How the data were processed

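RNA of colonic tissue was sequenced as paired reads from strand-marked libraries with molecular identifiers, per the labels' protocols. The deposited table gives 1 estimated count and 1 FPKM value per gene and library, per the file headers. Per the submitters' processing notes the reads were handled with HISAT2 2.0.4 and StringTie 1.3.4d on GRCm38, beside cutadapt 1.9 and UMI-tools, and the role of each is not given in the sources used here. As deposited, the estimated counts hold whole numbers that pile up at multiples of 4, and the authors' FPKM is listed near 0 where the count is 0, which was set to 0 here. Totals were 51961764 to 69007117 per library.

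The 9 libraries were grouped by title, and all were fitted together in R 4.3.3 with edgeR 4.0.16 (quasi-likelihood, TMM, no covariate). Benjamini-Hochberg adjustment covered 14506 genes whose mean reached 1 FPKM. The SE is the log2 fold change divided by the root of the F statistic. Alternatives used DESeq2 1.42.0, limma 3.58.1, other scalings and filters, a replicate block and leaving out each library. The functions were tested on simulated data.

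The members and lists were chosen with earlier results of these data known. Genes named are the 8 members, the 3 genes of smallest p in each of 6 pathway lists, the 3 nearest profiles per tested member (those of Ptges are not reported here), and others stated as chosen later or given to complete a list's calls. Of the 14 marker lists, those whose values stand beside a member's are printed in the report and the rest in the closing section. All 8 members matched a RefSeq promoter window.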

Additional observations from a re-analysis of the deposited data

How the results depend on the processing

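Hpgd kept its direction and its call in all 19 alternatives for high-fat diet against chow (log2 fold change -3.11 to -2.51) and for berberine against high-fat diet (2.12 to 2.45). The number of the 6 members called for high-fat diet against chow was 1, and 3 with DESeq2, 2 with library totals alone, and between 1 and 4 when 1 library was left out. Library totals added Ptgs2 (edgeR adjusted p = 0.0421). For berberine against high-fat diet it was 1, and 2 with DESeq2, and between 1 and 2 when 1 library was left out. For berberine against chow it was 0 in every alternative. Genes called between berberine and chow numbered 7, and 384 with DESeq2, 2 with relative log expression factors, 2 with filterByExpr, 2 with only the 2 groups compared, 2 with counts divided by 4, 2 with the replicate block, and between 1 and 7 when 1 library was left out. Genes called between berberine and high-fat diet numbered 4460, and between 2960 and 4740 when 1 library was left out, lowest without berberine replicate 2. Signs turned in 13 values of 4 results, none called. Ptges, berberine against high-fat diet, gave -0.091 on library totals, -0.0054 with filterByExpr, -0.028 and -0.025 by limma with 1 and 0.1 FPKM added, and -0.21 to 0.30 when 1 library was left out. Ptges2 in the same comparison gave -0.075, -0.052 and -0.061 on library totals and by limma with 1 and 0.1 added, and -0.018 to 0.082 when 1 library was left out, and Ptgs1 gave -0.14 to 0.36. Ptger4, high-fat diet against chow, gave -0.33 to 0.11. The cause was not tested. On library totals the median of all genes moved to 0.13 for high-fat diet against chow and -0.12 for berberine against high-fat diet. The titles' replicate numbers did not pair the libraries (correlation of same-numbered deviations from -0.099 to 0.16), and with the replicate block 4344 and 4286 genes were called in place of 4613 and 4460. Ptgds, at 0 to 238 counts, is the gene most limited by depth.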

Other observations

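Lipoxygenases and leukotriene enzymes use the same arachidonic acid as the cyclooxygenases, and 7 of 14 genes listed for that branch were tested. Alox12, a lipoxygenase gene, was at 3.59, 1.28 and 2.69 CPM in chow, at 67.7, 111.5 and 110.8 CPM under high-fat diet and at 2.34, 2.81 and 1.7 CPM with berberine. It rose by 5.26 ± 0.43 for high-fat diet against chow and fell by 5.4 ± 0.43 for berberine against high-fat diet on the log2 scale (edgeR adjusted p = 0.00018 and 0.000139). Alox12 passed the filter only through the high-fat diet libraries, at 22.0 FPKM there, 0.533 in chow and 0.484 with berberine, so a difference was built into its being tested. Unlike Ptgs2, its lowest high-fat diet value was in replicate 1. Alox15, another lipoxygenase gene, named after its values were seen, was at 374.4, 118.4 and 91.1 CPM under high-fat diet and at most 11.0 CPM elsewhere. Dpep1, a dipeptidase that converts leukotrienes, fell by 5.02 ± 1.11 under high-fat diet, or by 3.66 without chow replicate 2. In that replicate it was at 302.8 CPM, against 81.8 and 25.3 CPM in the other chow libraries. Ltc4s, the leukotriene C4 synthase gene, was higher by 2.32 ± 0.53 with berberine than under high-fat diet (edgeR adjusted p = 0.0116). Of the 7 tested, 2 rose and 1 fell for high-fat diet against chow (median 0.89), where 15.2% of all tested genes rose and 16.6% fell. For berberine against high-fat diet 1 rose and 2 fell (median -0.71), where 15.8% of all tested genes rose and 14.9% fell. These counts do not set the branch apart. By edgeR none of the 7 changed for berberine against chow, with none under 0.05 unadjusted, against 10.9% of all tested genes.

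The deposited annotation pairs 89 genes with the KEGG term for arachidonic acid metabolism, a list used after the file was seen. Of 46 tested, 8 rose and 15 fell for high-fat diet against chow, 16 rose and 9 fell for berberine against high-fat diet, and by edgeR none changed for berberine against chow, with 11 under 0.05 unadjusted. Over all tested genes 15.2% rose and 16.6% fell in the first comparison, 15.8% and 14.9% in the second, and 10.9% were under 0.05 unadjusted in the third. The medians of the 46 were -0.46, 0.13 and -0.16. Some of the 46 passed the filter only through a group where they were high, so a difference was built into their being tested. Besides Alox12, these included Alox12e (3.32 FPKM under high-fat diet, 0 in chow, 0.0175 with berberine) and Cyp2b10 (4.04, 0.306 and 0.0255 FPKM in that order). Cyp2c65 did so through chow, at 22.3 FPKM there, 0.133 under high-fat diet and 0.822 with berberine.

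The remaining marker lists gave these summed CPM ranges in chow, high-fat diet and berberine libraries. Neutrophil genes ran from 59.5 to 156.0, 76.8 to 157.4 and 127.0 to 194.0. Of the 4 tested, 3 rose under high-fat diet against chow, where 15.2% of all tested genes rose. With berberine 2 fell against high-fat diet, where 14.9% of all tested genes fell, so the sums and the calls differed. Of the neutrophil genes Elane was at 0 in chow, Elane, Ngp and Camp under high-fat diet and Retnlg with berberine. Fibroblast genes ran from 1292 to 1791, 992 to 1587 and 1294 to 1867. Genes of enteric glia and neurons ran from 102.4 to 136.6, 35.5 to 74.8 and 73.7 to 93.4. Endothelial genes ran from 147.7 to 195.6, 115.0 to 178.1 and 172.5 to 221.9. Genes of T and B cells ran from 337.6 to 541.1, 130.4 to 230.0 and 501.3 to 902.2, with no overlap between high-fat diet and either other group.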
